A study of Mus musculus with 12 samples.

Results

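The genes described here encode the protein-folding machinery of the endoplasmic reticulum (ER) and the unfolded protein response, together with genes of amino acid supply that the same stress pathways control. They were chosen by name from a list of 50 genes, of which 35 were measured, among 8267 named genes on the array. The cells were MECs, which the labels call mouse intraembryonic endothelial cells and a cell line. They were mock-treated as controls or given BMP6, a bone morphogenetic protein of the TGF-beta superfamily, for 4, 12 or 24 h. Each of the 4 groups had 3 arrays, stated to be independent biological replications, and the labels give neither the BMP6 dose nor a time for the controls. MEC RNA carried the dye Cy5 and was hybridised against Cy3-labelled universal mouse reference RNA, a pool common to all 12 arrays. A level below is the deposited log ratio of MEC to reference RNA for a gene, averaged over its probes and taken as log2, so it ranks a gene against its own signal in the reference and not against the abundance of other genes. The sources used here state no log base and no direction of the ratio. The direction was taken from the dyes: the opposite one would reverse all higher and lower values, and another base would alter folds but not tests. Probes were matched to genes through an order of array positions worked out from these data. Of 13 listed endothelial markers 5 were measured, and all 5 lay below the reference in controls. Cdh5 stood at -1.62 ± 0.08, Pecam1 at -1.42 ± 0.24 and Kdr at -1.25 ± 0.22 (SD, n = 3). Flt1 at -0.50 ± 0.07 and Esam at -0.39 ± 0.27 lay closer to it. The endothelial label was therefore not borne out by these 5 ratios to a pooled reference. The other measured markers at a control level above 0 were Col1a1 and Col1a2 of 4 fibroblast markers and Krt19 of 6 epithelial markers, and the blood marker Ptprc lay at -0.76. The median fibroblast marker level was 0.08, -0.19, -0.06 and 0.07 in controls and at 4, 12 and 24 h, and the median epithelial level in controls was -1.24. Among single markers the fibroblast cadherin Cdh11 was lower at 4 h than in controls by a log2 difference of -0.45 (adjusted p 0.0251) and higher at 24 h than at 4 h by 0.62 (adjusted p 0.00802). The endothelial receptor Flt1 was higher at 4 h by 0.23 (adjusted p 0.0366) and lower than at 4 h by 12 h (-0.31, adjusted p 0.0384) and 24 h (-0.25, adjusted p 0.0354). None of these passed without the replicate block (adjusted p 0.346 to 0.704), and the part of cell composition in the results was not tested.

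Proteins that enter the secretory pathway are folded in the ER by the Hsp70 chaperone BiP (encoded by Hspa5), by its J-domain partners and by lectins and disulfide isomerases. When unfolded proteins accumulate, the sensors PERK (Eif2ak3), IRE1 (Ern1) and ATF6 are activated: ATF6 and the spliced form of XBP1 raise transcription of chaperones and degradation factors, and PERK slows translation while favouring that of ATF4, a factor for amino acid supply genes. Endothelial cells secrete matrix and adhesive proteins and make use of this machinery. The array measures transcript levels only, and neither the splicing of Xbp1 nor the state of the sensors is measured by it.

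The promoters of many chaperone genes carry the ER stress response element (ERSE), which binds NF-Y at one end and ATF6 or XBP1 at the other. It was searched as CCAAT, any 9 bases and CCACG on both strands of the 250 bases before the RefSeq gene start (assembly GRCm38.p6). It was found in 37 of 32851 promoters (0.113%) and in 9 of the 42 listed genes that have a promoter sequence. Of these 9 genes 6 were measured. They include Hspa5, Dnajc3 and Creld2, whose expression is described below, and are shown in the orientation of the motif with its fixed letters in capitals. The Hspa5 site lies at chr2:34772013-34772055 (plus strand) and the Dnajc3 site at chr14:118937815-118937857 (plus). The Creld2 site lies at chr15:88819508-88819550 (minus strand), the Calr site at chr8:84847063-84847105 (plus) and the Syvn1 site at chr19:6046520-6046562 (plus). Hsp90b1 had 2 matches, of which the one nearer to the gene start, at chr10:86705521-86705563 (plus), is shown.
Hspa5: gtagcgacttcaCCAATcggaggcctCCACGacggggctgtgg
Dnajc3: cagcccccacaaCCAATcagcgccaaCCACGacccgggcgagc
Creld2: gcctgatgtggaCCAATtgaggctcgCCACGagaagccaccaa
Hsp90b1: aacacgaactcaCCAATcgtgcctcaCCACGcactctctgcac
Calr: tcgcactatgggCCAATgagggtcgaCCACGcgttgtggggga
Syvn1: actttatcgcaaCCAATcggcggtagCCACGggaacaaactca
A second ER stress element, ERSE-II (ATTGG, any 1 base and CCACG), was found in 0.0304% of promoters and in 1 listed gene, Herpud1, which was not measured. The element of C/EBP and ATF factors, searched as TGATGNAAN, was found in 3.44% of promoters and in 5 listed genes, among them the measured Asns, at chr6:7693212-7693244 (minus strand), and Atf3, at chr1:191183424-191183456 (plus). None of the 5 genes is a chaperone or partner, and 1 of them, the degradation gene Herpud1, also held the ERSE-II match. No test of motifs between roles was run.
Asns: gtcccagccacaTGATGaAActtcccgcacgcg
Atf3: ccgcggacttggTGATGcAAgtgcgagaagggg
A match describes these letters in this window and is not evidence of binding.

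Relative to the reference, the group lay high in MECs before any treatment. Of the 35 measured genes 33 had a control level above 0, with a median of 0.96, where 52.3% of all named genes lay above 0 with a median of 0.03. A level above 2 was reached by 8 of the 35 genes (22.9%), against 0.629% of all named genes. The order of roles, by median control level, was led by the lectin Calr at 2.37, its role's one measured member, and by 8 chaperones and partners at 2.01, followed by 3 thiol oxidoreductases at 1.81 and 4 amino acid supply genes at 1.36. Translocation genes stood at 0.77 over 5 genes, the 4 sensors and their factors at 0.64, 5 degradation genes at 0.50 and 5 integrated stress response genes at 0.38.

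**Figure D1:**
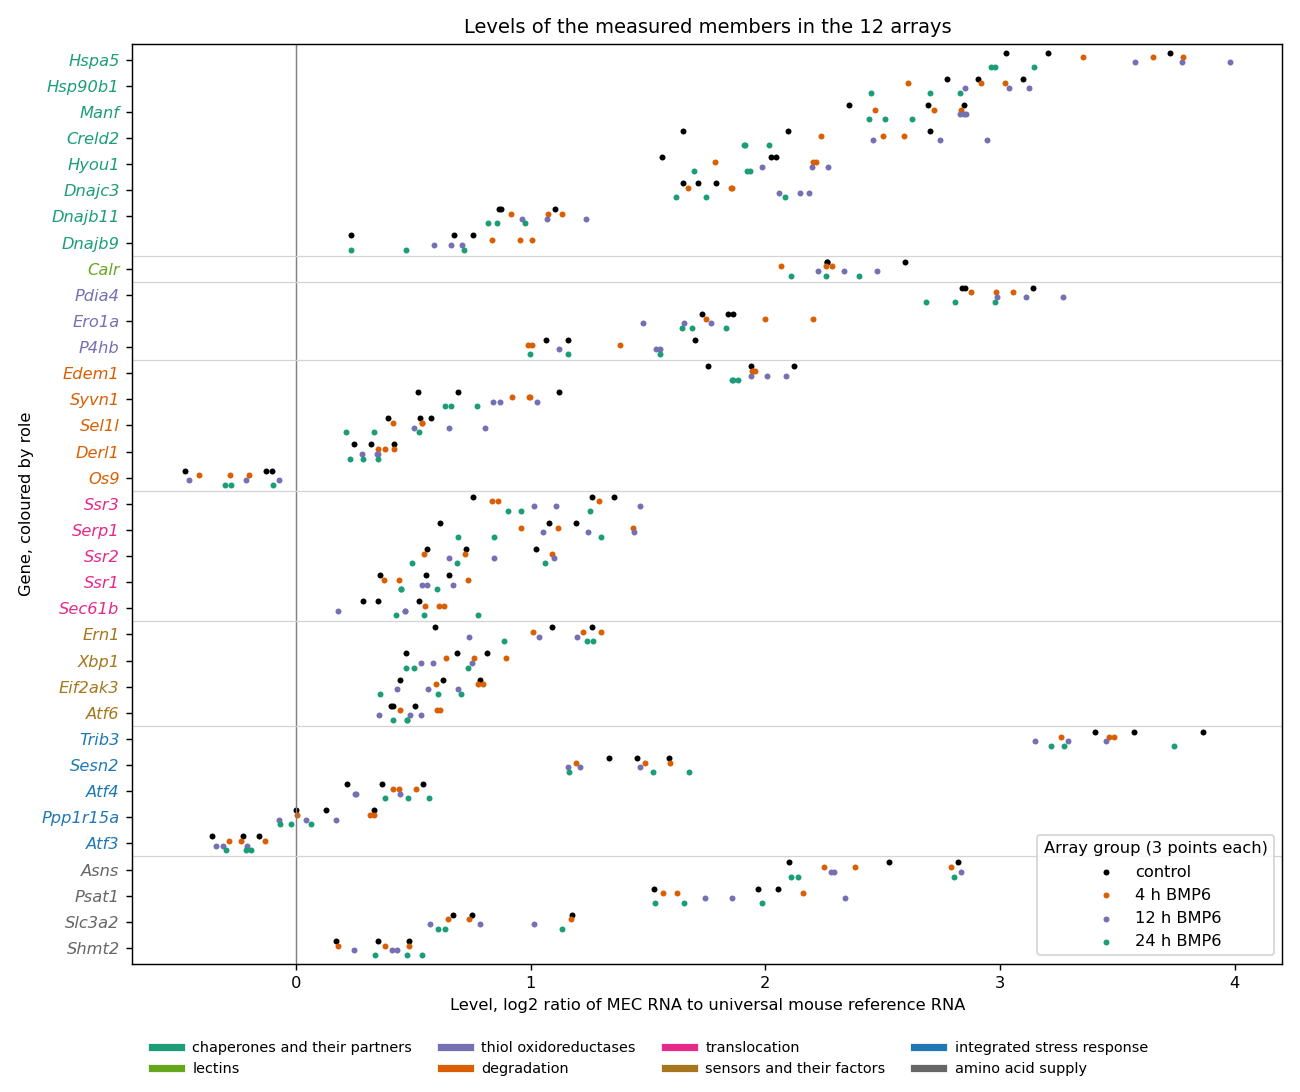
Level of each of the 35 measured genes on each of the 12 arrays, as the log2 ratio of MEC to reference RNA (horizontal axis), with genes on the vertical axis ordered by role and 3 points per group. Trib3, Hspa5 and Pdia4 lie farthest to the right, and in Hspa5 and Creld2 the 24 h points lie left of all 4 h and 12 h points.

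Trib3, a pseudokinase induced through ATF4, had the highest control level of the group, 3.87, 3.41 and 3.57 in replicates 1, 2 and 3. Hspa5 followed with 3.20, 3.02 and 3.73, and Pdia4, a disulfide isomerase, with 2.84, 2.85 and 3.14. Neighbours in this order overlapped, since the highest Hspa5 array lies above the lowest Trib3 array and the highest Pdia4 array above the lowest Hspa5 array. The lowest control levels were those of the stress transcription factor Atf3 (-0.23, -0.16 and -0.36), the degradation lectin Os9 (-0.13, -0.10 and -0.47) and Ppp1r15a (0.00, 0.13 and 0.33), which encodes a phosphatase subunit that reverses the translational block. Within the integrated stress response the levels were therefore far apart, with Trib3 at 3.61 ± 0.23 and Sesn2, a stress-induced sestrin, at 1.46 ± 0.13, while Atf4 itself stood at 0.38 ± 0.16 (SD, n = 3 each).

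At 4 h of BMP6 no member passed the test. In limma with the replicate number of the titles as a block, 0 of 35 had a Benjamini-Hochberg adjusted p under 0.05, where 6.02% of all named genes did. That background itself varied, from 208 to 642 of all named genes with 1 array left out (without control replicate 2 and control replicate 1), around 498 with all arrays. An unadjusted p under 0.05 was reached by 5 genes above control and 2 below it, 7 in all, against 8.09%, 13.2% and 21.3% of all named genes. The 4 h arrays lay wholly above the controls in 2 of the 35, against 3.81% of all named genes. Without the replicate block 0 members passed, 1 member had an unadjusted p under 0.05, and 14 of all named genes passed (0.169%).

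Dnajb9, a J-domain cochaperone of BiP and a target of XBP1, had the smallest p at 4 h. Its levels were 0.67, 0.23 and 0.76 in controls, 0.95, 0.84 and 1.01 at 4 h, 0.59, 0.66 and 0.71 at 12 h and 0.72, 0.23 and 0.47 at 24 h. All 4 h arrays lay above all control arrays and above all 12 h and 24 h arrays. The log2 difference from control at 4 h was 0.38 (SE 0.103, adjusted p 0.0575; 0.456 without the block), and it passed at 0.0445 after quantile normalization, at 0.0421 without 12 h replicate 2 and at 0.047 without 24 h replicate 1. With single arrays or replicate numbers left out, in 15 fits, its value at 4 h ran from 0.27 to 0.46. It passed in 2 of these 15 fits, with adjusted p up to 0.318. From 4 h to 24 h Dnajb9 fell by 0.46 on the log2 scale (standard error 0.103 and adjusted p 0.0359, or 0.362 without the block), in 3 of 3 pairs. That call missed the threshold when any one of the 4 h arrays was left out (0.051, 0.15 and 0.119 for replicates 1, 2 and 3). The same held for 24 h arrays 2 and 3 (0.167 and 0.159), for 12 h array 3 (0.056), and with unnamed array rows tested too (0.0633). Without all arrays of replicate number 2 or 3 the call was also lost (0.209 and 0.218), and without number 1 it held (0.0496). 2 of 35 members were called in this comparison, both lower, against 4.05% of all named genes called and 2.2% called lower. The 24 h arrays lay wholly below the 4 h arrays in 5 of the 35 (14.3%), against 6.6% of all named genes, and 12 members were lower at an unadjusted p under 0.05, against 8.96%.

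Hyou1, a large ER chaperone of the Hsp110 family, was 0.19 higher than control at 4 h (adjusted p 0.0917) and 0.27 higher at 12 h (SE 0.0603, adjusted p 0.0515), in 3 of 3 pairs each time. Its levels were 2.03, 1.56 and 2.05 in controls, 2.20, 1.79 and 2.22 at 4 h, 2.20, 1.99 and 2.27 at 12 h and 1.94, 1.70 and 1.92 at 24 h. Replicate 2 was the lowest array in each group, so the control and 12 h arrays overlapped although each pair moved the same way. Serp1, which protects newly made membrane proteins under stress, had levels of 1.19, 0.61 and 1.08 in controls, 1.44, 0.96 and 1.12 at 4 h, 1.44, 1.06 and 1.25 at 12 h and 1.30, 0.69 and 0.85 at 24 h. It stood 0.21 above control at 4 h (adjusted p 0.12) and 0.28 at 12 h (adjusted p 0.0835), again in 3 of 3 pairs and with overlapping groups.

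No sensor passed the test. At 4 h Ern1, Atf6, Eif2ak3 and Xbp1 stood 0.19, 0.11, 0.11 and 0.11 above control, with adjusted p between 0.183 and 0.269, and at 12 h the 4 lay between -0.06 and 0.02 of control. All 4 were lower at 12 h than at 4 h in 3 of 3 pairs, with differences of -0.09 to -0.18 (adjusted p 0.158 to 0.435), and Xbp1 was lower at 24 h than at 4 h in 3 of 3 pairs, with a difference of -0.19 (adjusted p 0.055). Xbp1 passed there after quantile normalization (0.0337) and without control replicate 3 (0.0316). Ern1 had levels of 1.26, 1.09 and 0.60 in controls, 1.30, 1.22 and 1.01 at 4 h, 1.04, 1.20 and 0.74 at 12 h and 1.24, 1.27 and 0.89 at 24 h. Its groups overlapped, and it passed at 4 h without control replicate 1, where the difference was 0.29 (adjusted p 0.0403). That was 1 of 15 fits with arrays left out, in which the adjusted p ran up to 0.693. The 2 Ern1 probes differed at 4 h, with 0.07 for one and 0.31 for the other. Calr, the ER lectin that binds monoglucosylated glycoproteins, read 2.26, 2.27 and 2.60 in controls, 2.28, 2.07 and 2.26 at 4 h, 2.34, 2.23 and 2.48 at 12 h and 2.11, 2.26 and 2.40 at 24 h, and stood at -0.17 at 4 h (adjusted p 0.209), lower in 2 of 3 pairs.

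At 12 h all 8 measured chaperones and partners stood above control, with a median difference of 0.24, and 1 of them passed. Over the 35 genes 1 passed (2.86%), higher, where 1.89% of all named genes passed and 0.472% passed higher. An unadjusted p under 0.05 was reached by 7 above control and 1 below it, against 5.96% and 9.48% of all named genes. The 12 h arrays lay wholly above the controls in 1 of the 35, against 3.13% of all named genes. They lay wholly below in 0, against 4.14%. The median over the 35 genes was 0.07, against -0.002 over all named genes. Dnajc3, the J-domain cochaperone p58IPK, rose 1.33-fold at 12 h (log2 change 0.41, SE 0.085, adjusted p 0.0433; 0.497 without the block). It read 1.79, 1.71 and 1.65 in controls, 1.86, 1.86 and 1.67 at 4 h, 2.06, 2.19 and 2.15 at 12 h and 1.75, 2.09 and 1.62 at 24 h. The 12 h arrays lay above every control and 4 h array, while 24 h replicate 2 overlapped them. The call held without 24 h replicate 2 (0.0173) and missed the threshold without each of the other 11 arrays in turn (adjusted p from 0.0504 without 24 h replicate 3 to 0.179 without control replicate 2). It also missed it when the unnamed array rows were tested together with the named genes (0.0969) and with a trend in the variance prior (0.0652). Leaving out all arrays of replicate number 1, 2 or 3 ended the call as well (0.16, 0.214 and 0.128).

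Hspa5 and Creld2, a cysteine-rich ER protein induced by ER stress, had the largest differences from control at 12 h and did not pass. Hspa5 read 3.65, 3.35 and 3.78 at 4 h, 3.57, 3.78 and 3.98 at 12 h and 2.96, 2.98 and 3.15 at 24 h, beside the control values given above. At 12 h it stood 0.46 above control (SE 0.105, adjusted p 0.0596; 0.966 without the block), higher in 3 of 3 pairs. Creld2, given in full because its values were the largest once seen, read 2.10, 1.65 and 2.70 in controls, 2.59, 2.24 and 2.50 at 4 h, 2.75, 2.46 and 2.94 at 12 h and 1.92, 1.91 and 2.02 at 24 h. It stood 0.57 above control at 12 h (SE 0.143, adjusted p 0.0843; 0.966 without the block), in 3 of 3 pairs. Control replicate 3 was the highest control array for both genes and overlapped the 12 h group. Without that array 7 members passed at 12 h, all higher: Creld2 at 0.78 (adjusted p 0.00889), Hspa5 at 0.58 (0.0204), Serp1 at 0.37 (0.0204), Ssr3 at 0.24 (0.0409), Syvn1 at 0.27 (0.0432), Psat1 at 0.25 (0.0439) and Hyou1 at 0.30 (0.047). Dnajc3 was not among them (0.056). Over all named genes 288 passed at 12 h without that array, 169 of them higher, against 156 and 39 with all arrays. Control replicate 2 was the lowest control array for Hspa5 and Creld2. Without it Creld2 stood at 0.40 (adjusted p 0.295) and Hspa5 at 0.36 (0.228). After quantile normalization 5 passed, Hspa5 (0.0187), Hyou1 (0.0187), Dnajc3 (0.0293), Serp1 (0.0448) and Creld2 (0.0459). Calls over all named genes at 12 h were then 80 higher and 135 lower, against 39 and 117 in the fit as reported.

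**Figure D2:**
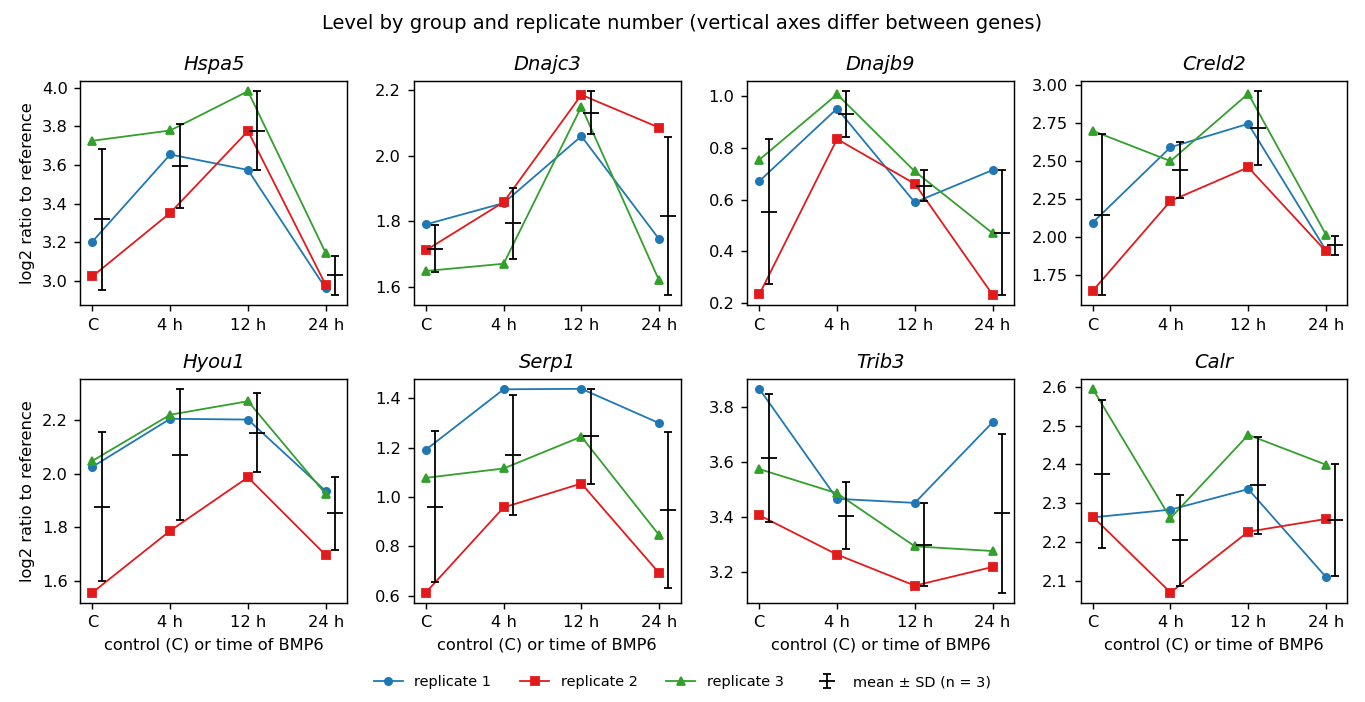
Level (log2 ratio to the reference, vertical axis, with its own scale in each panel) of 8 genes in controls (C) and after 4, 12 and 24 h of BMP6, with a coloured line for each replicate number and the mean ± SD of 3 arrays in black. Hspa5, Creld2, Hyou1, Serp1 and Dnajc3 are highest on average at 12 h, Dnajb9 at 4 h, and Trib3 and Calr in controls.

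By 24 h the group stood at or slightly below control. Of the 35 genes 27 lay below it, with a median of -0.07, where 4349 of the 8267 named genes did, with a median of -0.005. In the test 0 of the 35 passed, where 0.169% of all named genes passed. With arrays left out in turn the median of the 35 ran from -0.106 to -0.012. An unadjusted p under 0.05 was reached by 4 members, all lower, against 7.94% of all named genes in either direction and 4.81% lower: Hspa5 at -0.29, Hsp90b1, the ER Hsp90, at -0.27, Trib3 at -0.20 and Sel1l, an adaptor of the degradation ligase, at -0.14. Without the block 0 members and 0 of all named genes passed, and 0 members had an unadjusted p under 0.05.

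The largest differences lay between 12 h and 24 h. All 8 chaperones and partners were lower at 24 h than at 12 h, with a median of -0.32, against -0.12 over the 35 genes and 0.00 over all named genes. Hspa5 fell 1.68-fold, by 0.75 on the log2 scale (standard error 0.105 and adjusted p 0.0387, or 1.0 without the block), in 3 of 3 pairs and with no overlap of the groups. It was the one member among the 9 of all named genes called in this comparison (0.109%; 0.0242% called lower). Its 3 probes gave -0.78, -0.76 and -0.71. Leaving out any one 12 h array ended the call (0.111, 0.309 and 0.0926 for replicates 1, 2 and 3), as did any one 24 h array (0.218, 0.111 and 0.199) and the first array of the 4 h group (0.051) or of the controls (0.0699). It was also lost with a trend in the variance prior (0.195), with unnamed rows tested too (0.107), and without all arrays of replicate number 1, 2 or 3 (0.521, 0.381 and 0.162). Hspa5 also fell by 0.57 on the log2 scale from 4 h to 24 h, with an adjusted p of 0.0158 (0.356 without the block). Leaving out array 3 of the 4 h group (0.0573), or array 1 or 3 of the 24 h group (0.0599 and 0.0894), ended that call, as did the variance trend (0.0932). So did leaving out all arrays of replicate number 1, 2 or 3 (0.0928, 0.0966 and 0.118). The comparisons with 24 h share the same 3 arrays, as those with control share the 3 control arrays, and are not independent of each other.

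Creld2 was lower at 24 h than at 12 h by as much as Hspa5, with a log2 difference of -0.77, and did not pass (SE 0.143, adjusted p 0.105). It passed without control replicate 3 (0.0263). The groups at 12 h and 24 h did not overlap, 24 h being lower, in 8 of the 35 genes (22.9%), where this was so in 3.21% of all named genes. Of the 8 genes 5 are chaperones and partners, namely Hspa5, Hsp90b1, Hyou1, Manf and Creld2, and the other 3 are Pdia4 and the degradation factors Syvn1, a ubiquitin ligase, and Edem1, a mannosidase-like protein. An unadjusted p under 0.05 was reached by 13 members lower at 24 h and 1 higher, where 3.97% of all named genes were lower and 4.58% higher by that rule. Between 4 h and 12 h 0 of 35 passed, against 1.29% of all named genes, and the largest differences were in Ero1a, the oxidase that recharges disulfide isomerases, at -0.35 (adjusted p 0.137), and Dnajc3 at 0.34 (adjusted p 0.092). Without control replicate 3 the 3 comparisons between times together held 9 calls of members, 8 lower and 1 higher, where the fit on all arrays held 3, all lower. The calls over all named genes rose as well without that array. They were 236 for 12 h against 4 h, 28 for 24 h against 12 h and 545 for 24 h against 4 h. With all arrays they were 107, 9 and 335.

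**Figure D3:**
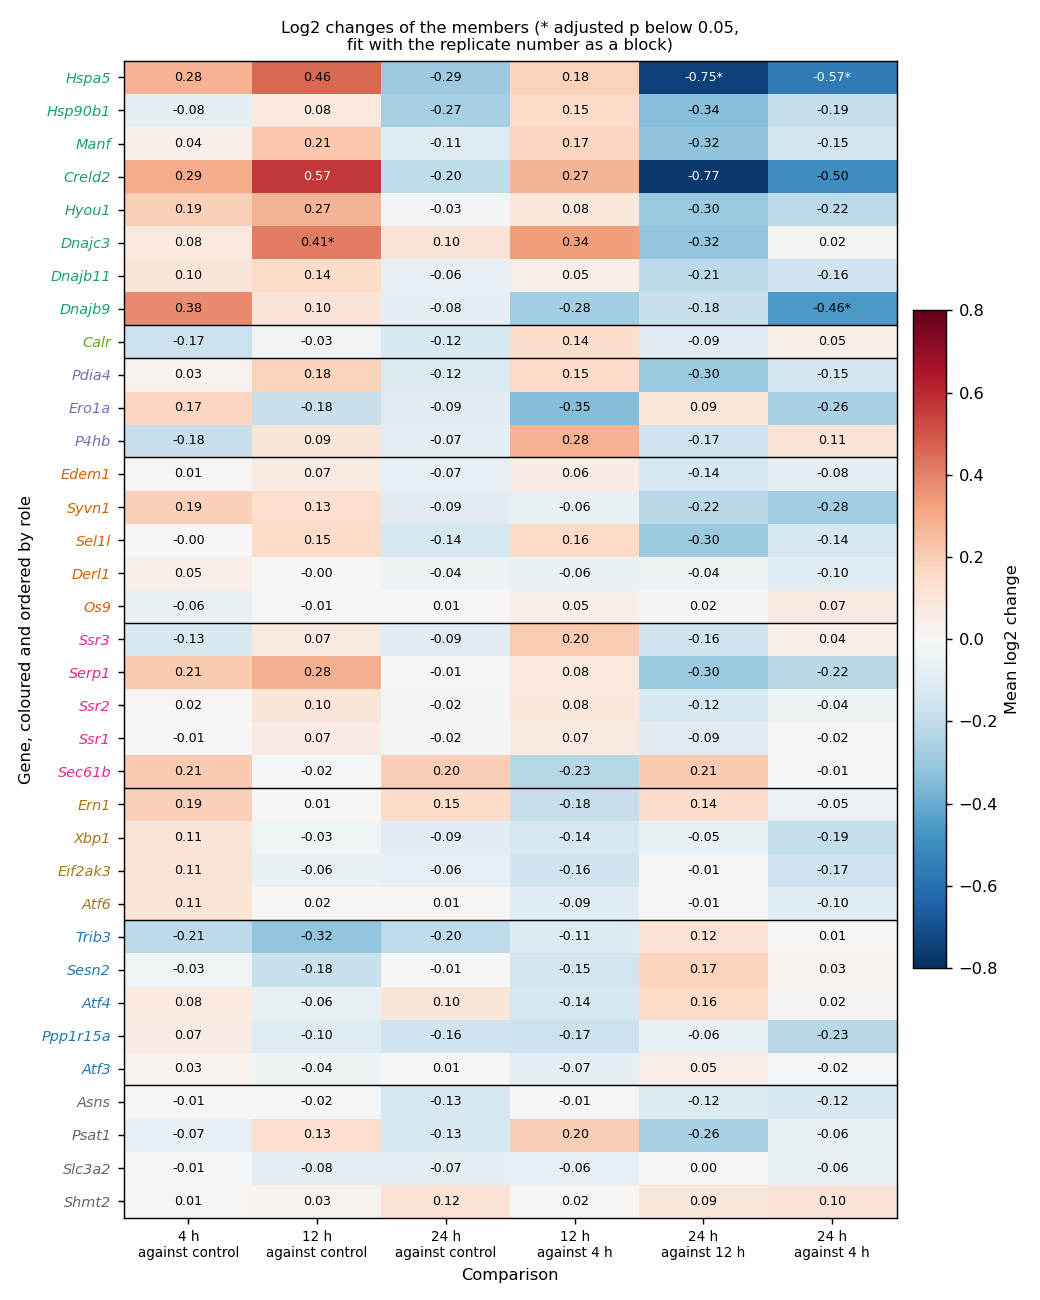
Mean log2 change of each measured gene (rows, coloured and ordered by role) in the 6 comparisons (columns), with the value printed in each cell, red for higher and blue for lower, and an asterisk where the limma adjusted p was below 0.05 with the replicate number as a block. The 4 asterisks are Dnajc3 at 12 h against control, Hspa5 at 24 h against 12 h and against 4 h, and Dnajb9 at 24 h against 4 h.

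The chaperones had medians of 0.14, 0.24 and -0.09 against control at 4, 12 and 24 h, and the other roles are given at the same times. The 3 thiol oxidoreductases had medians of 0.03, 0.09 and -0.09, and the 4 sensors and their factors 0.11, -0.01 and -0.03. Calr, the 1 measured lectin, stood at -0.17, -0.03 and -0.12. The 5 translocation genes were Sec61b of the Sec61 channel, Ssr1, Ssr2 and Ssr3 of its associated TRAP complex, and Serp1. They had medians of 0.02, 0.07 and -0.02 at 4, 12 and 24 h. Sec61a1 of the channel was not measured. The 5 degradation genes had medians of 0.01, 0.07 and -0.07. The 5 integrated stress response genes had medians of 0.03, -0.11 and -0.005. All 5 lay below control at 12 h, and Trib3 was the lowest of them there at -0.32 (SE 0.0778, adjusted p 0.0783), lower in 3 of 3 pairs. Trib3 read 3.47, 3.26 and 3.49 at 4 h, 3.45, 3.15 and 3.29 at 12 h and 3.74, 3.22 and 3.28 at 24 h, and its groups overlapped those of the controls. It passed at 12 h without 4 h replicate 1 (adjusted p 0.0448). That was 1 of 15 fits with arrays left out, in which the adjusted p ran up to 0.44. The 4 amino acid supply genes had medians of -0.01, 0.01 and -0.10, and Asns, the asparagine synthetase, lay at -0.01 and -0.02 at 4 and 12 h. No test of the difference between roles was run.

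**Figure D4:**
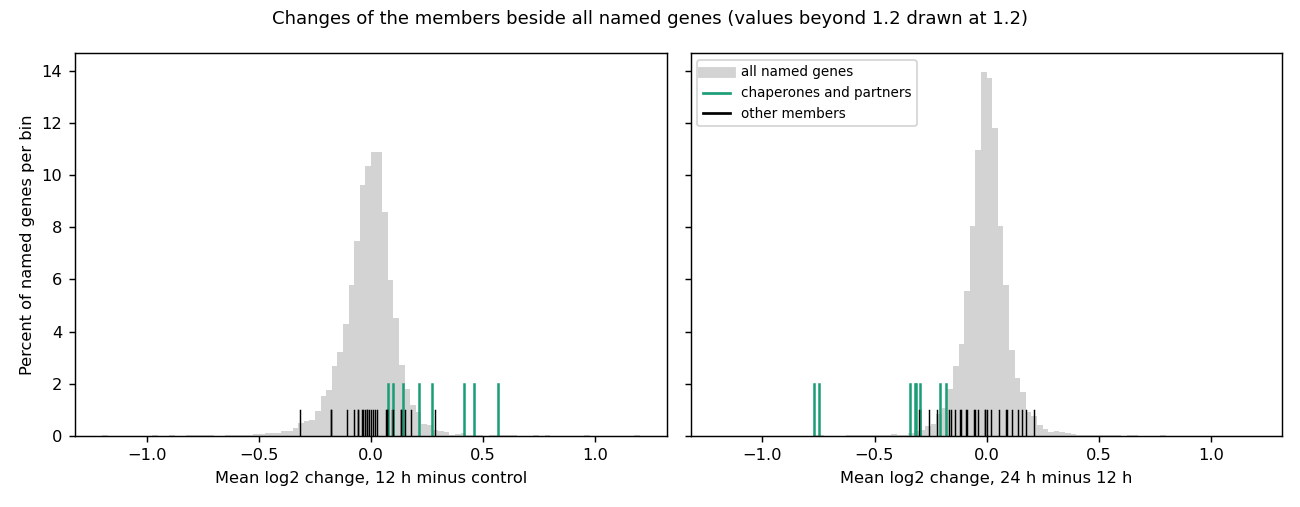
Distribution of the mean log2 change over the 8267 named genes (grey, percent of genes per bin) at 12 h minus control (left) and 24 h minus 12 h (right), with a green line for each of the 8 chaperones and partners and a black line for each other member. The green lines lie right of 0 on the left and left of 0 on the right, out to 0.57 and -0.77 for Creld2.

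The 6 measured genes with an ERSE match in their promoter, shown above, had a median of 0.27 at 12 h against control and of -0.33 at 24 h against 12 h, all 6 being lower in the latter. The 24 measured genes with a promoter sequence and no match had medians of -0.001 and -0.05, and Dnajb9 was among them. Only 30 of the 35 measured genes had a promoter sequence, and the chaperones Hyou1 and Manf, which had none, are in neither set. Hspa5, Dnajc3, Creld2 and Hsp90b1 are chaperones and partners, so the motif and the role overlap. The difference between the sets was not tested. The ERSE genes were not uniform. Creld2 and Hspa5 stood at 0.57 and 0.46 at 12 h, while Hsp90b1 and Calr, which carry the same fixed letters, stood at 0.08 and -0.03.

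Other genes of the pathway were taken from a list of 108, of which 74 were measured: 48 of folding and quality control and 26 of the integrated stress response and amino acid supply. At 4 h 1 of them rose and 2 fell (4.05% called, against 6.02% of all named genes), and at 12 h and 24 h 0 passed against control. From 4 h to 24 h 1 fell (1.35%, against 4.05% of all named genes). Creb3l2, an ER-anchored transcription factor related to ATF6, rose by 0.47 at 4 h (SE 0.0947, adjusted p 0.0179; 0.178 without the block), in 3 of 3 pairs without overlap, and from 4 h to 24 h it fell by 0.52 on the log2 scale (adjusted p 0.0146; 0.204 without the block). Txndc12, an ER thioredoxin-like protein, fell by 0.24 on the log2 scale at 4 h (adjusted p 0.042; 0.673 without the block), and Pck2, the mitochondrial PEP carboxykinase, fell by 0.18 on the log2 scale (adjusted p 0.0482; 0.902 without the block). At 12 h 50 of the 74 lay above control, where 4076 of the 8267 named genes did. At 24 h 52 lay lower than at 12 h, where 4145 of all named genes did. The medians of the 74 were 0.03 and -0.06. Of the 48 folding and quality control genes 22.9% were higher at 12 h at an unadjusted p under 0.05, against 5.96% of all named genes. From 12 h to 24 h 31.2% of the 48 were lower by that rule, against 3.97%. The 24 h arrays lay wholly below the 12 h arrays in 14.6%, against 3.21%. For the 26 others these shares were 3.85%, 3.85% and 11.5%.

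How far the members' levels moved with the replicate number bears on all these values. Over the 35 genes the replicate number held 48.9% of the sum of squares, the treatment group 33.7% and the remainder 17.4%, against 55.0%, 23.4% and 21.6% over all named genes. The median chaperone level was 2.06, 1.68 and 2.37 on control arrays 1, 2 and 3, which is a wider spread than on the 12 h arrays (2.47, 2.32 and 2.56) or the 24 h arrays (1.93, 2.00 and 1.97). In the fit without the replicate block 0 members were called in any comparison. The share of all named genes called there was 0.169% at 4 h, 0.0726% for 24 h against 4 h and 0.0% in the other 4 comparisons.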

How the data were processed

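Total RNA of 12 MEC samples was measured on two-colour Agilent arrays. Per the series' design text, images were quantified in GenePix Pro and the authors normalized the raw data by an algorithm of the quantiles type. The deposited series table holds 1 value per spot and array, read here as the log2 ratio of Cy5 (MEC) over Cy3 (reference); base, direction and filters are not stated in what was used here. No intensities were used, so no detection filter was applied, and 3 arrays a group limit the precision. The 12 array medians lay between -0.04 and 0.002.

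The platform table lists 11083 probe numbers, 10576 with 1 symbol (10548 updated through gene ID) and 507 with several, which were not named. Probes were placed on the 20280 value rows through a grid order inferred from these data, under which a gene's first 2 probes correlated at r = 0.471 across 1831 genes (0.021 at the deposited row numbers). The order was inferred from such agreement between probes of a gene, so this r is not an independent check of it. Probes of a gene were averaged, giving 8267 genes.

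limma 3.58.1 (R 4.3.3; lmFit, eBayes, two-sided) was fitted over all 12 arrays and genes with the group and, as an additive block, the replicate number of the titles, with Benjamini-Hochberg adjustment over the 8267 genes and a threshold of 0.05. The numbers recur in all groups, and deviations from group means correlated at 0.446 to 0.756 for same-numbered arrays and -0.561 to 0.0366 for others. A gene's deviations sum to 0 within each group, so positive values for same-numbered arrays tend to make the others negative. The labels do not say what a shared number stands for. Data for the 4 h comparison over 8267 genes were simulated from the fitted model with the block and independent normal noise. Of the changed genes 94% were called at a log2 change of 0.5 and 100% at 1, and 4 of 201 calls were false. Without the block the shares were 64% and 92%, with 0 false. The block is true by construction in such data, so the simulation does not show that it suits the real arrays. Alternatives were the fit without the block, quantile normalization, median centring, the first probe of a gene, a variance trend, unnamed rows included, the methods' t-test, and each array or replicate number left out. The members and lists were chosen with earlier results of these data known. Full values were given for members called in any comparison and those of smallest p at 4 h, up to 8, and for the 3 highest and 3 lowest control levels; other pathway genes were named where called. Promoters came from RefSeq (GRCm38.p6).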

Additional observations from a re-analysis of the deposited data

Results flagged for a closer look

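In 2 members the response differed between times by the test of that difference in limma with the replicate block. Hspa5 was lower at 24 h than at 12 h (log2 difference -0.75) and than at 4 h (-0.57), and Dnajb9 was lower at 24 h than at 4 h (-0.46). Each difference had the same direction in 3 of 3 pairs, and none passed without the block (adjusted p 1.0, 0.356 and 0.362). The groups of 3 arrays were too small to be screened for single outlying arrays.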

How the results depend on the processing

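Without the replicate block 0 members were called in any comparison (4 h, 12 h, 24 h or between times), where the fit with the block called 0, 1, 0 and 3; over all named genes the calls at 4, 12 and 24 h were 14, 0 and 0 against 498, 156 and 14, and for 12 h against 4 h, 24 h against 12 h and 24 h against 4 h 0, 0 and 6 against 107, 9 and 335. Every call of a member therefore depends on the pairing by title number. After quantile normalization 1, 5 and 5 members were called at 4 h, at 12 h and between times, and the calls of all genes at 12 h were 80 higher and 135 lower (39 and 117 in the fit as reported) and for 12 h against 4 h 55 and 108 (22 and 85). With the first probe of each gene 1 member was called at 4 h and 2 at 12 h, and the median changes were 0.016 for 12 h against 4 h and -0.144 for 24 h against 4 h (0.049 and -0.095 as reported); 71 of all genes were then called for 12 h against 4 h. With a trend in the variance prior 0 members were called at 12 h and 1 between times, and 5 of all genes for 24 h against 12 h. With unnamed rows in the fit 0 and 1 members were called, and 94, 4, 15 and 0 of all genes at 12 h, 24 h, 12 h against 4 h and 24 h against 12 h. On centred arrays 6 of all genes were called for 24 h against 12 h, with the counts of members as reported. The methods' t-test called 1 member at 4 h unadjusted, and 0 after adjustment at 4 h, 12 h and 24 h, where it called 0, 1 and 0 of all genes. The cause of these differences was not tested.

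With 1 array, or all 4 arrays of 1 replicate number, left out in turn, the count of members called ran from 0 to 3 at 4 h, 0 to 7 at 12 h and 0 to 9 between times, and was 0 at 24 h; the highest counts were without control replicate 3. The median change ran from 0.001 to 0.103 at 12 h, -0.002 to 0.049 for 12 h against 4 h, -0.106 to -0.012 at 24 h and -0.137 to -0.069 for 24 h against 12 h, and the median level at 12 h from 1.06 to 1.15. Over all alternatives together, the 4 calls of single members were lost in 50 of 85 fits, and other named values gained a call in 17 of 286. With 1 array left out the calls among all genes ran from 208 to 642 at 4 h, 22 to 288 at 12 h, 2 to 16 at 24 h, 2 to 264 for 12 h against 4 h, 0 to 28 for 24 h against 12 h and 85 to 545 for 24 h against 4 h. Without all arrays of replicate number 2 they were 20, 3, 0, 0, 1 and 6. A filter on dim probes was not run, since no intensities were used.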

Other observations

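Probes of the same gene agreed on some members and not on others. The control levels of the 3 Hspa5 probes lay within 0.33 of each other. The 2 probes of Ero1a, Derl1, Atf6 and Ssr1 differed in control level by 1.48, 1.32, 1.26 and 1.07, and a member with a single probe has no such check. In Ssr1 one probe stood at -0.02 in controls and showed changes of at most 0.01 in size in the 3 comparisons with control, while the other stood at 1.06 and lay 0.14 above control at 12 h.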
